A study of Mus musculus with 36 samples.

Results

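The genes described here encode the enzymes of mitochondrial and peroxisomal fatty acid oxidation, with their carriers and 2 transcriptional regulators. The 39 listed genes were found in the RNA-seq count table by matching its RefSeq accessions to gene symbols, the row with the highest mean count was taken for each gene, and genes under 10 counts in most libraries were left out. This left 31 of the 39 genes, of which 16 act in the mitochondrion, 13 in the peroxisome and 2 in the cytosol, among 20458 different gene symbols in the whole table. Whole kidneys of C57BL/6 mice from 2 models of polycystic kidney disease were taken on day 1, 3 or 7 after birth, written P1, P3 and P7. WT mice were Pkd1 f/f or Pkd2 f/f, that is, homozygous for a floxed allele of Pkd1 or Pkd2 and without Cre. KO mice were Pkd1 f/f:HoxB7-Cre or Pkd2 f/f:HoxB7-Cre, with the same floxed alleles and a Cre driven by the HoxB7 promoter, which is active in the collecting duct. There were 3 libraries in each of the 12 groups, 36 in all. The deletion was aimed at the collecting duct, whereas the RNA came from the whole organ. In such bulk samples fewer cells of a type and less RNA per cell cannot be told apart. The labels number the samples within a group but do not say which came from separate animals, so the p-values measure only the spread between these samples, which may be technical.

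The libraries held from 7179152 to 15850818 counts, with a median of 13143336, and all 36 pairs of replicates differed by more than sampling noise, with a chi-square of 5.15 to 64 per transcript. Counts per transcript of whole kidney cannot show the loss of floxed exons in 1 segment. Pkd1 differed by 0.10 ± 0.12 (log2, SE) between KO and WT of the Pkd1 model at P7, and Pkd2 by -0.29 ± 0.05 between KO and WT of the Pkd2 model, and the second of these passed the test (edgeR, adjusted p = 0.0115). Counts of Y-linked genes were present in all 3 KO and in no WT library of the Pkd1 model at P7, so genotype and these counts cannot be told apart there, and in 3 KO and 2 WT libraries of the Pkd2 model at P7. Transcripts of 3 steroid-synthesis genes of the adrenal gland, picked after their values were seen (Cyp11a1, Cyp11b1 and Cyp21a1), reached 11812 to 50708 counts in 3 libraries (Pkd1 KO 1 at P7, Pkd2 WT 2 at P3 and Pkd2 KO 3 at P7) and 3 to 253 in the other 33. Ucp1, the uncoupling protein of brown fat, had 183 and 165 counts in Pkd1 KO 1 and 3 at P7, 115 in Pkd2 WT 3 at P7 and 267 in Pkd2 WT 2 at P3.

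Fatty acids are activated to acyl-CoA, carried into the mitochondrion as carnitine esters by the carnitine palmitoyltransferases, and shortened there by repeated rounds of dehydrogenation, hydration, dehydrogenation and thiolysis. Peroxisomes run a parallel chain for very long, branched and dicarboxylic acids, whose first step makes hydrogen peroxide that catalase removes, and pass shortened products on to mitochondria. In the kidney the proximal tubule is the segment richest in both organelles and depends on fatty acid oxidation for its transport work, and its enzymes are induced as the tubule matures after birth.

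Promoter windows of 300 bases (250 before to 50 after an annotated start site, RefSeq, GRCm38.p6, the assembly of mm10) were given for 28 of the 31 genes, 29 windows in all, and not for Acaa2, Decr1 and Hsd17b4. 4 are shown because the results turn on these genes: Acaa1a and Acaa1b, a pair of closely related peroxisomal thiolases whose transcripts differed in their change at P7, and Ehhadh and Hao2, which with Acaa1b had the largest falls that passed the test. Capitals mark 4 motifs read on either strand. These are the CAAT box written as CCAAT, the TATA box written as TATAAA, the GC box written as GGGCGG, and the nuclear receptor half-site written as AGGTCA. Their reverse complements are in capitals too, and in Acaa1b a match on one strand overlaps one on the other. The windows lie at chr9:119341044-119341343, plus strand (Acaa1a), chr9:119157044-119157343, minus strand (Acaa1b), chr16:21787785-21788084, minus strand (Ehhadh) and chr3:98893181-98893480, minus strand (Hao2), and each is written in the direction of transcription. The windows of Acaa1a and Hao2, like those of Scp2, Eci2 and Cpt1a, lie wholly inside the annotated span of their gene. So does the Abcd3 window at chr3:121814860-121815159, whereas the other Abcd3 window crosses the end of the span. Windows wholly inside the span surround a start site within it and not the outermost one.
Acaa1a: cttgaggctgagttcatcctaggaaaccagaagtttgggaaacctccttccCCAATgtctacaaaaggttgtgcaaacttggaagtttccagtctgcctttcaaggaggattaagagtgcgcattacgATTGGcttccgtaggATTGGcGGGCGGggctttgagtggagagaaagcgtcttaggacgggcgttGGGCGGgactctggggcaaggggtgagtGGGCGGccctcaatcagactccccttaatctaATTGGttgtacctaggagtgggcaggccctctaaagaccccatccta
Acaa1b: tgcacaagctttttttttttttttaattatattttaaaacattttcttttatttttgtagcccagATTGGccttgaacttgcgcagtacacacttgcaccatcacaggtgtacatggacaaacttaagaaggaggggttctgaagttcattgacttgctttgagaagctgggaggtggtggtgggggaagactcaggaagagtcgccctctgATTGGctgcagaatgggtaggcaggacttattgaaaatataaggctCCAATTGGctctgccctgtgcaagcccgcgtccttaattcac
Ehhadh: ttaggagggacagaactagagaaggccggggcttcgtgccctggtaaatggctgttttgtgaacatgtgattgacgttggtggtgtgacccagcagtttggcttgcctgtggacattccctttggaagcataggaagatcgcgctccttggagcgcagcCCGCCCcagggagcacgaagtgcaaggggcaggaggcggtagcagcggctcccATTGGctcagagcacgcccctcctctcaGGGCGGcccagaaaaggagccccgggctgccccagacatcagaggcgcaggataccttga
Hao2: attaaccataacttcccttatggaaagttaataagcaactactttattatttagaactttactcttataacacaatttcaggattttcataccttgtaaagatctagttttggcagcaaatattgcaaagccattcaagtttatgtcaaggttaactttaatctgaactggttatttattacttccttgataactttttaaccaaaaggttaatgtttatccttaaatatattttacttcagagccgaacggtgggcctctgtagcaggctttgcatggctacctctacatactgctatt

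Aligned end to end, the Acaa1a and Acaa1b windows were identical in 177 of 342 columns (51.8%) and shared no run longer than 8 bases. Both enzymes carry out the same reaction. The Acaa1a window held 3 GGGCGG and the Acaa1b window none. Hao2 held none of the 4 motifs and, at 32.3% G+C, was the lowest of the 29 windows, against a median of 61.3% for the members and 52.7% for all 32851 windows in the table. GGGCGG was found in 20 of the 29 windows (69%, against 35.7% of all windows), CCAAT in 12 (41.4%, against 37.4%), and TATAAA in 0, against 13.6% of all. AGGTCA is the half-site of many nuclear receptors, among them the PPARs and HNF4A, and stood in 6 of the 29 windows (20.7%), a share close to the 16.3% of all windows. The direct repeat of this half-site with 1 base between its copies was in 0 of the 29, against 13 of the 32851 windows (0.0396%). The 3 genes with an AGGTCA that passed the test as lower in KO of both models at P7 are shown with the bases around it, at chr2:103485332-103485377, minus strand (Cat), chr4:108118631-108118676, minus strand (Scp2) and chr3:153944867-153944893, minus strand (Acadm, whose window begins there). A match is a string of letters in this window and not an observed binding site.
Cat: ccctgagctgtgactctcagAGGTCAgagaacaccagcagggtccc
Scp2: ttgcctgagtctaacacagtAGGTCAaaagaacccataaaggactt
Acadm: gTGACCTtcgggctccggtgacactgg

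In WT kidneys at P7 the mitochondrial genes filled most of the upper ranks when levels were divided by transcript length. In CPM (reads scaled to a common library size, with TMM factors) per kilobase, the highest means in the Pkd2 WT were those of Hadh (245), which oxidises hydroxyacyl-CoA, of Acadm and Acaa2 (201 each), the medium-chain dehydrogenase and the mitochondrial thiolase, and of Etfa (194), which takes electrons from the dehydrogenases. Fabp3, the cytosolic fatty acid binding protein of heart type, led in the Pkd1 WT at 206 CPM per kilobase and stood 6th in the Pkd2 WT at 178. The highest peroxisomal levels were those of Scp2, a thiolase and sterol carrier, at 147 and 167 CPM per kilobase in the Pkd1 and Pkd2 WT, and of Cat, catalase, at 110.0 and 119. Eci2, an enoyl-CoA isomerase, was the lowest at 1.71 and 1.52, and it is also the only kept gene with more than 1 RefSeq row. Neighbours such as Acadm and Acaa2 in the Pkd2 WT had the same mean, and this order was not tested.

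In WT kidneys many members were higher at P7 than at P1, and none passed the test as lower. In the Pkd1 WT all 31 genes had a log2 fold change above 0 and 10 passed the test as higher (edgeR quasi-likelihood test, adjusted p under 0.05), against 12.6% of 12527 transcripts called higher and 25.8% in either direction. In the Pkd2 WT 29 of the 31 were above 0 and 19 passed as higher, against 13.1% of 12633 called higher and 26.7% in either direction. The median log2 fold change of the members was 0.38 in the Pkd1 and 0.33 in the Pkd2 WT, beside 0.006 and 0.009 over all transcripts tested. By compartment, 6 of 16 mitochondrial and 4 of 13 peroxisomal genes were called in the Pkd1 WT (medians 0.39 and 0.44), and 9 of 16 and 9 of 13 in the Pkd2 WT (medians 0.29 and 0.33).

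9 genes passed the test as higher at P7 in the WT of both models, 5 of them mitochondrial (Acadsb, Hadh, Decr1, Eci1 and Etfa) and 4 peroxisomal (Acaa1a, Acaa1b, Scp2 and Cat). Of these Acaa1b had the largest rise, with log2 fold changes of 1.34 ± 0.26 (SE), adjusted p = 0.00131 in the Pkd1 and 1.05 ± 0.26 (SE), adjusted p = 0.00641 in the Pkd2 WT. In the Pkd1 WT its CPM were 75.5, 62.7 and 66.7 at P1 and 182, 130.5 and 210.0 at P7, and the days did not overlap. Cat rose from 216, 181 and 171 CPM at P1 to 310.3, 326 and 293 at P7 in the Pkd2 WT, a log2 fold change of 0.71 ± 0.08 (SE), adjusted p = 1.63e-05. Decr1, a dienoyl-CoA reductase needed for unsaturated fatty acids, rose by 0.50 and 0.67 on the log2 scale, and Eci1, the mitochondrial enoyl-CoA isomerase, by 0.76 and 0.61. Hao2, a peroxisomal 2-hydroxyacid oxidase, did not pass, at 0.29 ± 0.13 and 0.02 ± 0.13 (log2 fold change, SE). Acot1, Cpt1a, Acadl, Hadha, Etfdh, Pex11a, Ehhadh, Hsd17b4, Decr2 and Crot were called in the Pkd2 WT alone and Acads in the Pkd1 WT alone, and whether the models differ in these rises was not tested.

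Between P1 and P3 no member passed the test in the Pkd1 WT (0.439% of all transcripts did, 0.391% as higher and 0.0479% as lower; 14 of the 31 had an unadjusted p under 0.05, and DESeq2 called 3), and 3 were higher in the Pkd2 WT (1.43% of all transcripts in either direction, 0.799% higher and 0.633% lower): Hadh, Decr1 and Cat. Between P3 and P7, 2 members were higher in the Pkd1 WT (6.91% of transcripts called higher, 9.4% lower and 16.3% in all) and 13 in the Pkd2 WT (12.4%, 14.7% and 27.1%). All 3 Pkd1 WT libraries at P3 and none at P7 held Y-linked counts, so day and these counts cannot be told apart in that comparison. Pkd2 WT 2 at P3 was the library with the most adrenal transcripts, and without it the Pkd2 WT had 1 member called between P1 and P3, 13 between P3 and P7 and 20 between P1 and P7. The Pkd2 WT count between P1 and P7 ran from 9 to 26 over all single libraries, with 9 without WT 3 at P1, 12 without WT 2 at P1 and 11 without WT 2 at P7.

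**Figure D1:**
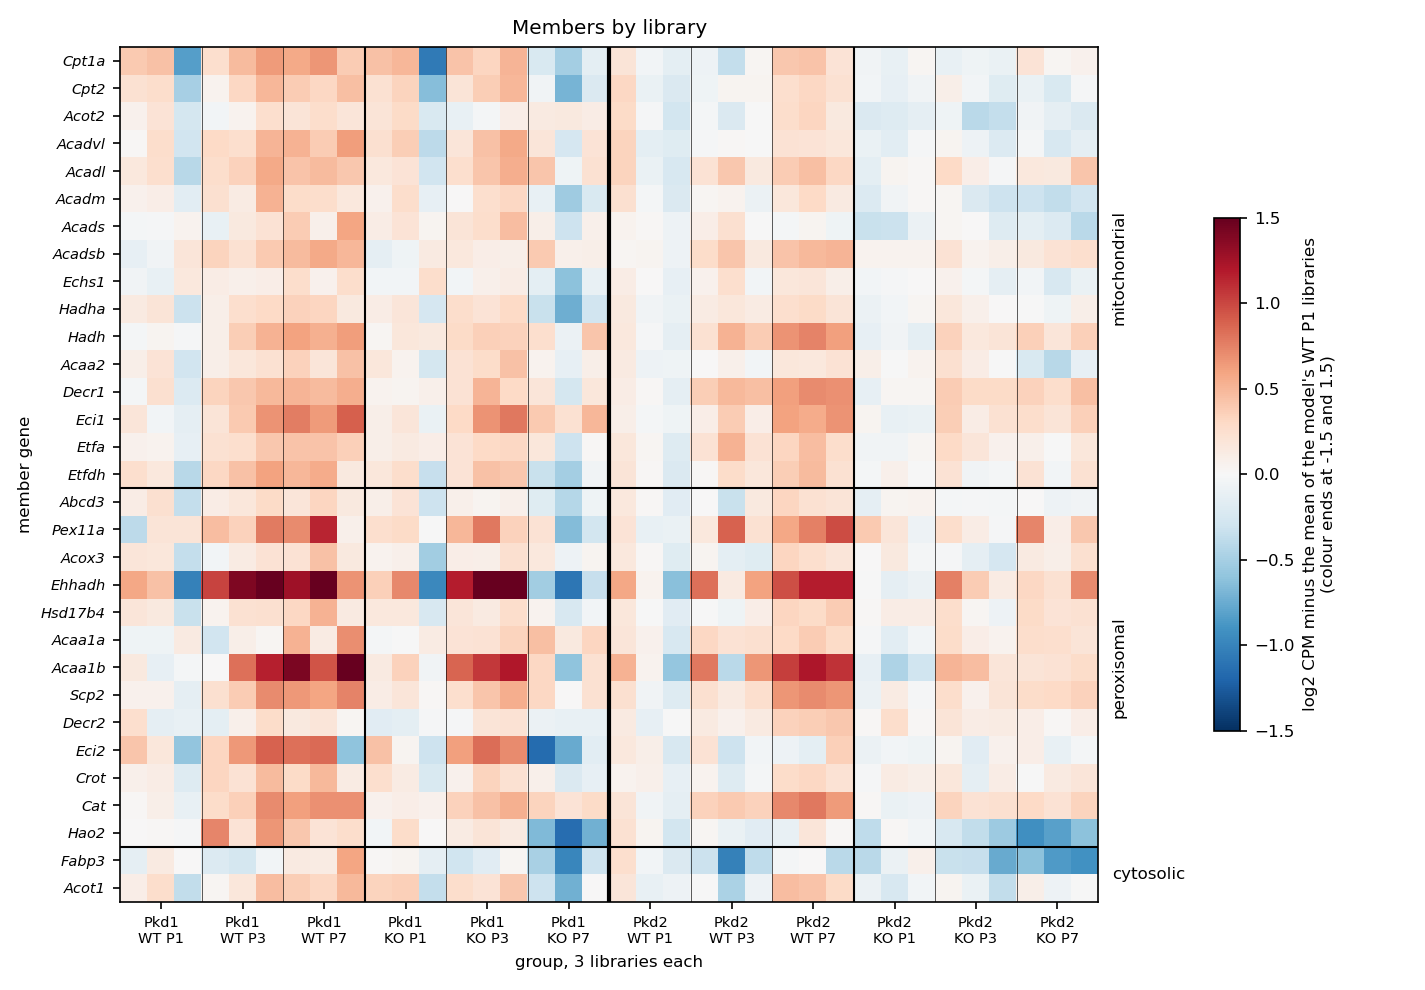
Level of the 31 kept genes in each of the 36 libraries, as log2 CPM minus the mean of the 3 WT libraries at P1 of the same model; columns are libraries in groups of 3, rows are genes by compartment, and red is higher. The WT blocks are redder at P7 than at P1, more so than the KO blocks, and Hao2 and Fabp3 are blue in all 6 KO libraries at P7.

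At P1 and P3 no member passed the test between KO and WT in either model. At P1 the background was 0% in both models (edgeR calls among 12527 and 12633 transcripts), and 0 members of the Pkd1 and 1 of the Pkd2 model had an unadjusted p under 0.05. At P3 the background was 0.00798% in the Pkd1 and 0% in the Pkd2 model, with 3 and 1 members at an unadjusted p under 0.05, and DESeq2 also called 0 members in all 4 comparisons. The median log2 fold changes of the members were 0.03 and 0.01 in the Pkd1 model at P1 and P3, and -0.05 and -0.07 in the Pkd2 model. Hao2 had the lowest value of the Pkd1 model at P3 and, after Pex11a, the next lowest of the Pkd2 model, at -0.40 ± 0.12 in the Pkd1 and -0.30 ± 0.10 in the Pkd2 model (log2, SE), and neither passed after adjustment. All 3 KO libraries lay below all 3 WT libraries for Hao2 at P3 in each model: 134, 141 and 136 CPM against 205, 142 and 195 in Pkd1, and 149.8, 136 and 121 against 180.4, 165 and 157 in Pkd2. That was so for 3 of the 31 members in the Pkd1 model, where 10.6% of all transcripts were ordered this way, and for 2 of the 31 in the Pkd2 model, where 5.16% were. The opposite order, all 3 KO above all 3 WT libraries, held for 1 member in Pkd1 (Acaa1a) and 0 in Pkd2. The shares of all transcripts were 10.4% and 4.62%.

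At P7 all 31 kept members had a log2 fold change below 0 between KO and WT in both models. In the Pkd1 model 13 of the 31 genes passed the test as lower and none as higher, against a background of 7.14% of 12527 transcripts called lower, 6.32% higher and 13.5% in either direction. In the Pkd2 model 19 of the 31 passed as lower and none as higher, against 6.17% of 12633 called lower, 7.88% higher and 14.1% in either direction. Their median log2 fold change was -0.45 in the Pkd1 and -0.31 in the Pkd2 model, whereas the median of all transcripts was 0.001 and 0. All 3 KO libraries were below all 3 WT libraries for 25 of the 31 members in the Pkd1 model (19.2% of all transcripts) and 26 of 31 in the Pkd2 model (16.6%). 10 genes were called in both models: 2 mitochondrial (Cpt2 and Acadm), 6 peroxisomal (Abcd3, Ehhadh, Acaa1b, Scp2, Cat and Hao2) and both cytosolic genes (Fabp3 and Acot1).

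Both counts moved with single libraries. The Pkd1 count fell to 2 without WT 1, to 4 without KO 2, to 5 without KO 1, to 6 without WT 2 and to 8 without KO 3, rose to 18 without WT 3, and was 1 without KO 1 and KO 3, the libraries with Ucp1, where the lone KO library is assumed to vary like the others. The Pkd2 count fell to 7 without WT 1, to 10 without KO 2 and to 12 without KO 3, was 15 without KO 1 and likewise without WT 2, and rose to 22 without WT 3 and to 21 without both KO 3 and WT 3. Every member kept a negative log2 fold change in all of these fits except Eci2 in Pkd2, at 0.1 without WT 3, with or without KO 3. A term for the presence of Y-linked counts, in a fit of all 18 libraries of a model, left 0 of the Pkd1 and 13 of the Pkd2 calls, beside 23 and 16 in the same fit without it. In Pkd1 this term rests on the 3 WT libraries at P1, the only Pkd1 group with libraries both with and without such counts. At P7 it coincides with genotype there, so the loss of the Pkd1 calls cannot show which of them the members follow. Among WT libraries of the 4 groups that held both kinds (6 with and 6 without Y-linked counts), 0 of 31 members passed the edgeR test for that presence. Unadjusted, 0 had a p under 0.05, and log2 values ran from -0.29 to 0.2. Few transcripts passed this test at all (6 of 12273), and the Pkd1 WT at P7 was not among these groups, so it does not settle the Pkd1 calls.

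**Figure D2:**
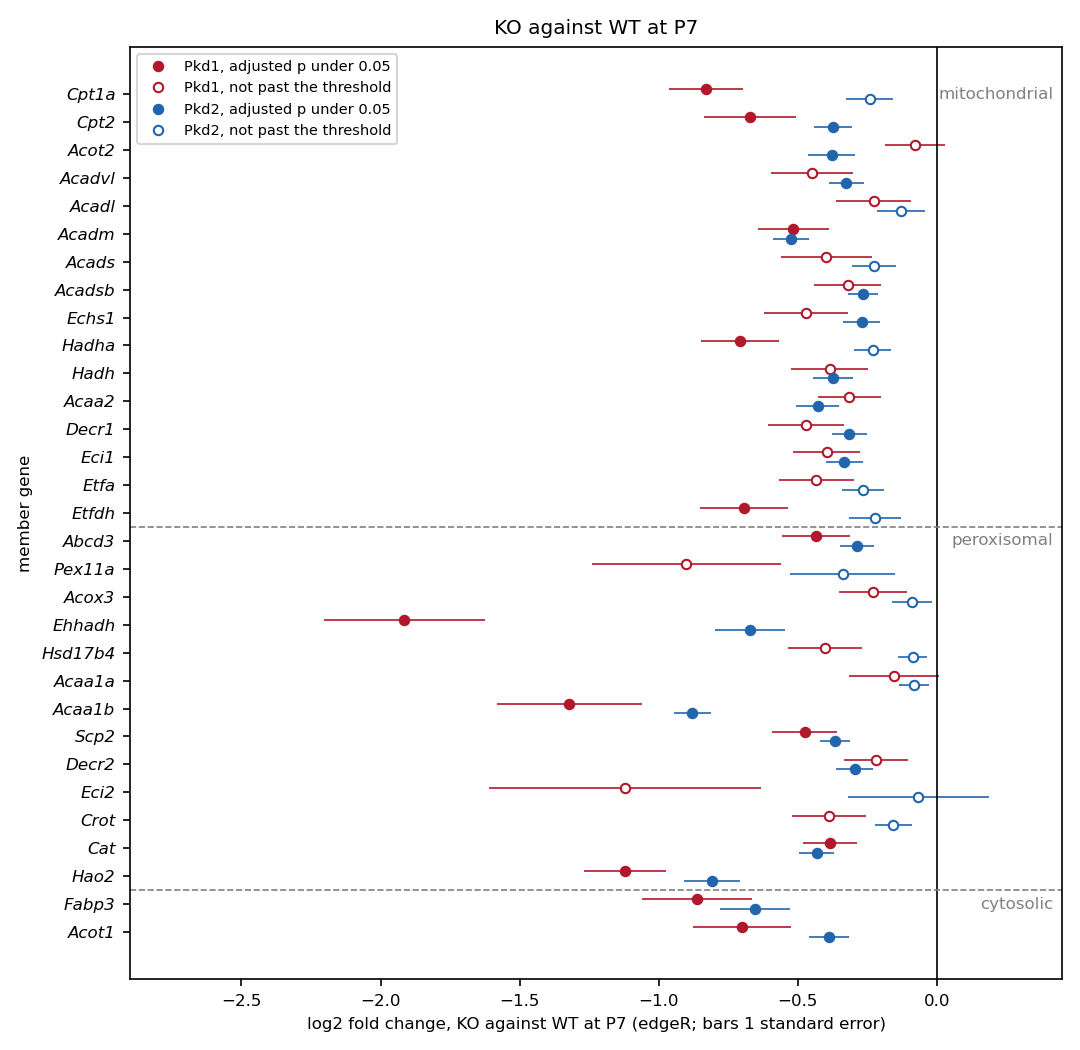
Log2 fold change between KO and WT at P7 for each kept gene, with 1 standard error (3 KO and 3 WT libraries in each model); filled points passed the test (adjusted p under 0.05). All points lie below 0, and Ehhadh, Acaa1b and Hao2 lie farthest to the left among the filled points of the Pkd1 model.

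The mitochondrial genes at P7 are taken in the order of the pathway. Cpt1a makes the acylcarnitines that enter the mitochondrion and is the controlled step of the pathway: its CPM were 253, 208 and 268 in the Pkd1 KO and 439, 470.3 and 386 in the WT, without overlap (log2 fold change -0.83 ± 0.13 (SE), adjusted p = 0.0121). Cpt1a in the Pkd2 model was 441, 388 and 400.5 CPM in KO against 505, 514 and 439 in WT, so that 1 KO library lay above the lowest WT library, and it did not pass (-0.24 ± 0.08 (SE), adjusted p = 0.0941). Cpt2 reverses that reaction inside the mitochondrion. Its CPM were 100.1, 64.0 and 89.2 in KO against 134, 129 and 141 in WT of the Pkd1 model (-0.67 ± 0.17 (SE), adjusted p = 0.0356). The Pkd2 values were 116, 105 and 122 against 148, 153 and 144 (-0.37 ± 0.07 (SE), adjusted p = 0.0123). The KO libraries were lower than every WT library in both.

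Of the acyl-CoA dehydrogenases, which differ in the chain length they accept, the medium-chain enzyme Acadm was the one called in both models. Acadm had 286, 214 and 263 CPM in KO and 374, 371 and 345 in WT of the Pkd1 model (-0.52 ± 0.13 (SE), adjusted p = 0.0372). The Pkd2 model had 289, 276 and 293 and 403, 442 and 392 (-0.52 ± 0.07 (SE), adjusted p = 0.00292). The groups did not overlap in either. Of 6 fits that each lacked 1 library, 1 kept the Pkd1 call, which was also lost with the replicate block (edgeR, adjusted p = 0.0715). All 6 kept the Pkd2 call. The other dehydrogenases were smaller in change: Acadvl, for very long chains, at -0.45 and -0.33 (log2, Pkd1 and Pkd2), Acadsb, for short branched chains, at -0.32 and -0.26, Acads, for short chains, at -0.40 and -0.23, and Acadl, for long chains, at -0.23 and -0.13. Of these, Acadvl and Acadsb passed in the Pkd2 model and none did in the Pkd1 model. Within each library, the ratio of Acadm to Acadl, a pair chosen after the values were seen, was lower in all 3 KO than in all 3 WT libraries of both models at P7, at a difference of -0.29 (log2) in Pkd1 and -0.39 in Pkd2.

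The hydratase, dehydrogenase and thiolase steps come next. Hadha, the alpha subunit of the trifunctional protein, which joins 2 of these steps for long chains, was 290.4, 221 and 301 CPM in KO against 466, 457 and 407 in WT of the Pkd1 model (-0.71 ± 0.14 (SE), adjusted p = 0.0193) and missed the threshold in the Pkd2 model (-0.23 ± 0.07 (SE), adjusted p = 0.0508), although its groups did not overlap there either. Echs1, the short-chain hydratase, Hadh and Acaa2 passed in the Pkd2 model at -0.27, -0.37 and -0.43, and stood at -0.47, -0.39 and -0.31 in the Pkd1 model without passing. Decr1 and Eci1, the auxiliary enzymes for unsaturated acids, likewise passed in Pkd2 (-0.31 and -0.33) and not in Pkd1 (-0.47 and -0.40). Etfdh, which hands the electrons of the dehydrogenases to ubiquinone, passed in Pkd1 (-0.69 ± 0.16 (SE), adjusted p = 0.0291, and 0.0702 with the replicate block) and not in Pkd2 (-0.22 ± 0.09 (SE), adjusted p = 0.16). Etfa was -0.43 and -0.27 and passed in neither. Acot2, a thioesterase of the matrix, passed in Pkd2 alone (-0.38 ± 0.09 (SE), adjusted p = 0.0252).

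The medians of the peroxisomal and mitochondrial genes were close at P7, near -0.44 in the Pkd1 and -0.29 in the Pkd2 model, and the peroxisomal range was wider. In the Pkd1 model they ran from -1.91 to -0.15, against -0.83 to -0.08 for the mitochondrial genes, and in the Pkd2 model from -0.88 to -0.07, against -0.52 to -0.13. In the Pkd1 model 6 of 13 peroxisomal and 5 of 16 mitochondrial genes were called, and in the Pkd2 model 7 of 13 and 10 of 16. The summed CPM of the mitochondrial genes divided by that of the peroxisomal genes was 1.936 to 2.099 in the Pkd1 KO and 1.912 to 1.975 in the WT at P7, and 1.956 to 2.088 and 1.895 to 1.97 in the Pkd2 KO and WT, so that the groups overlapped in both models.

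Ehhadh, the bifunctional enzyme that carries out both middle steps of the peroxisomal chain (chr16:21761285-21787834), had the largest change in the Pkd1 model. Its CPM were 31.6, 21.3 and 35.7 in the Pkd1 KO and 109, 153 and 71.9 in the WT, a 3.77-fold difference without overlap (-1.91 ± 0.29 (SE), adjusted p = 0.0108). The Pkd2 values were 84.2, 79.7 and 111 and 132, 153 and 154 (-0.67 ± 0.13 (SE), adjusted p = 0.0132). WT 3 of the Pkd1 model stood well below the other 2 WT libraries and still above every KO library. The companion bifunctional enzyme Hsd17b4 was -0.40 and -0.09 and did not pass in either model.

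The thiolase step is served by Acaa1a and Acaa1b, whose genes lie on chromosome 9 (119341028 to 119350296 and 119148043 to 119157093, GRCm38.p6). Acaa1b had 84.6, 44.8 and 79.5 CPM in the Pkd1 KO against 182, 130.5 and 210.0 in the WT (-1.32 ± 0.26 (SE), adjusted p = 0.0193). It had 83.2, 84.7 and 88.2 against 149, 169 and 154 in the Pkd2 model (-0.88 ± 0.07 (SE), adjusted p = 0.000396). The groups were far apart in both. Acaa1a had 178, 145 and 164 CPM in the Pkd1 KO against 188, 142 and 212 in the WT. The Pkd2 libraries had 151, 150.2 and 144 against 155, 164 and 154. It did not pass in either model (-0.15 ± 0.16 (SE), adjusted p = 0.536, and -0.08 ± 0.05 (SE), adjusted p = 0.354). Because both are read from the same library, their ratio is free of the scaling between libraries. The log2 ratio of Acaa1b to Acaa1a was -0.06 ± 0.06 (SD, n = 3) in the Pkd1 WT and -1.27 ± 0.36 in the KO at P7. The Pkd2 model gave 0.00 ± 0.05 in WT and -0.80 ± 0.08 in KO. At P1 the ratio was -0.94 ± 0.20 in WT and -0.83 ± 0.27 in KO of the Pkd1 model. Those of the Pkd2 model were -0.79 ± 0.34 and -1.01 ± 0.10. The exact two-sided permutation test gave p = 0.1 at P7 in each model, the smallest p that 3 against 3 allows (adjusted p = 0.3 over the 18 comparisons of 3 ratios; the pair was chosen after the values were seen). The 2 genes are close copies, so how the counting split reads between them is uncertain.

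Hao2 was 78.2, 55.9 and 74.8 CPM in the Pkd1 KO and 164, 143 and 148 in the WT (-1.12 ± 0.15 (SE), adjusted p = 0.00714). Its Pkd2 values were 93.1, 100.4 and 116 and 164, 199.8 and 179 (-0.81 ± 0.10 (SE), adjusted p = 0.00284). Leaving out any single library kept its call in both models (6 of 6 fits each), and that of Ehhadh in the Pkd1 model. The Pkd1 calls of the next 3 genes, Cat, Scp2 and Abcd3, held in 1 of 6 such fits each and were lost with the replicate block (edgeR, adjusted p = 0.0997, 0.0713 and 0.106). Their Pkd2 calls held in 6, 6 and 3 of 6. Cat had 228, 209 and 220.1 CPM in KO and 278, 290.3 and 292 in WT of the Pkd1 model (-0.39 ± 0.10 (SE), adjusted p = 0.038). It had 232, 219 and 236 and 310.3, 326 and 293 in the Pkd2 model (-0.43 ± 0.06 (SE), adjusted p = 0.00537). The WT libraries of Cat were within a narrow band, and KO was 76.6% of WT in the Pkd1 and 74.1% in the Pkd2 model. Scp2 was 303, 244 and 287 against 384, 369 and 408 CPM in Pkd1 (-0.47 ± 0.12 (SE), adjusted p = 0.0366). It was 334, 341 and 352 against 439, 451 and 437 in Pkd2 (-0.37 ± 0.05 (SE), adjusted p = 0.00496). Abcd3 carries long-chain and branched acyl groups through the peroxisomal membrane. It had 178, 149 and 192 against 228, 251 and 223 CPM in Pkd1 (-0.435 ± 0.12 (SE), adjusted p = 0.0496). It had 225, 212 and 215 against 280.3, 262 and 255 in Pkd2 (-0.29 ± 0.06 (SE), adjusted p = 0.0189). For all 4 genes the KO libraries were below the WT libraries in both models.

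The remaining peroxisomal genes did not pass in the Pkd1 model: Decr2, a dienoyl-CoA reductase that passed in the Pkd2 model (-0.29 ± 0.07 (SE), adjusted p = 0.0244), was -0.22 there, Crot, which makes carnitine esters for export, -0.39, and Acox3, an acyl-CoA oxidase, -0.23. Pex11a, which promotes peroxisome division, was -0.90 ± 0.34 and -0.34 ± 0.19 (log2, SE, Pkd1 and Pkd2), and Eci2 -1.12 ± 0.49 and -0.07 ± 0.25. Both are low in count, Eci2 with 12 to 56 counts per library, and their errors were the widest of the set.

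The 2 cytosolic genes passed in both models. Fabp3 was 98.2, 70.0 and 111 CPM in KO and 151, 149.6 and 207 in WT of the Pkd1 model (-0.86 ± 0.20 (SE), adjusted p = 0.0302). The Pkd2 libraries stood at 104, 88.5 and 85.5 and 156, 161 and 121 (-0.65 ± 0.12 (SE), adjusted p = 0.0142). Acot1, a thioesterase that releases free fatty acid from acyl-CoA, was 80.0, 59.9 and 99.3 and 128, 123 and 138 CPM in KO and WT of Pkd1 (-0.70 ± 0.18 (SE), adjusted p = 0.038). In Pkd2 it was 116, 103 and 109 and 150.4, 146 and 132 (-0.39 ± 0.07 (SE), adjusted p = 0.0135). KO and WT did not overlap for either gene in either model. Acot1 and Acot2 are neighbours on chromosome 12 and close in sequence, so that reads may be shared between them. The log2 ratio of Acot1 to Acot2, also picked after its values were seen, was 0.87 ± 0.38 in KO and 1.52 ± 0.13 in WT of Pkd1 at P7 (SD, n = 3; exact permutation p = 0.1, the smallest possible, adjusted p = 0.3), a difference of -0.65. At P3 the Pkd1 difference was 0.17, the other way and also without overlap (exact p = 0.1, adjusted p = 0.3), and at P7 the Pkd2 difference was -0.01.

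**Figure D3:**
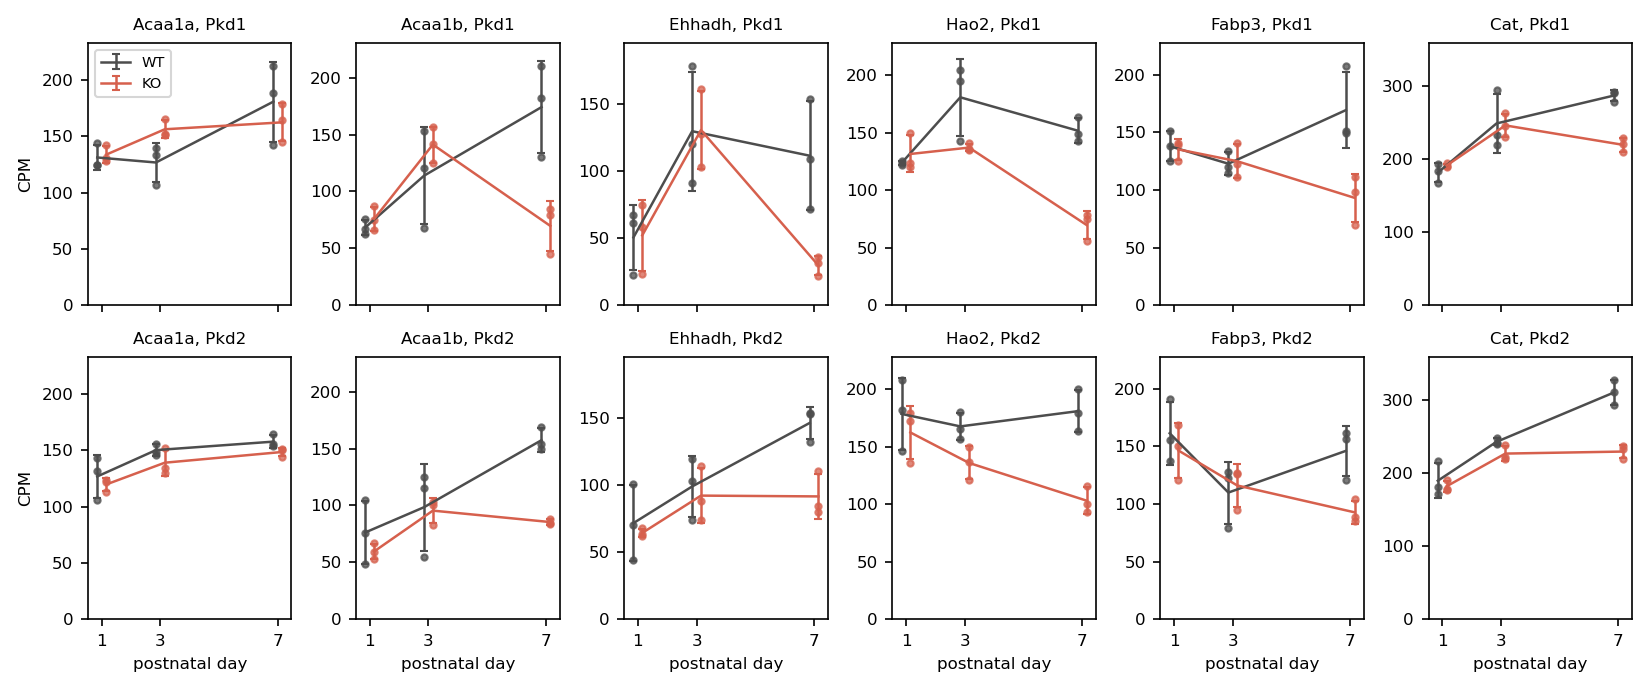
CPM of 6 members by postnatal day in WT (grey) and KO (red), upper row Pkd1 and lower row Pkd2; points are libraries, lines join the means and bars are the SD of 3 libraries. Acaa1b and Cat rise in WT and end below it in KO at P7, and Hao2 and Fabp3 fall in KO. For Acaa1a in the Pkd1 model the 2 genotypes overlap at P1 and P7, while at P3 all KO libraries lie above all WT libraries.

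KO kidneys at P7 were also compared with KO kidneys at P1. In both models all 3 KO libraries at P7 and no KO library at P1 held Y-linked counts, so day and these counts cannot be told apart here. In the Pkd1 KO 5 members were lower at P7 (Fabp3, Acadm, Echs1, Hadha and Hao2) and none higher, against 20.5% of transcripts called lower, 19.3% higher and 39.7% in either direction, a share of members (16.1%) below that background. In the Pkd2 KO 6 were higher (Hadh, Decr1, Eci1, Acaa1a, Scp2 and Cat) and 3 lower (Fabp3, Acaa2 and Hao2), against 12.5% called higher, 10.4% lower and 22.9% in either direction. The share of members called there was 29%, near the 22.9% of all transcripts. The median of the members was -0.13 in the Pkd1 and 0.12 in the Pkd2 KO. Hao2 and Fabp3 fell in the KO of both models, Hao2 by 0.91 and 0.66 on the log2 scale and Fabp3 by 0.54 and 0.66, while neither passed in the WT. By the test of the difference between KO and WT given below, both passed in Pkd1 and neither in Pkd2. Scp2, Cat, Hadh, Decr1, Eci1 and Acaa1a rose in the WT of both models and in the Pkd2 KO. Cat rose by 0.71 in the WT and 0.34 in the KO of Pkd2, a difference in the KO effect that did not pass. The Pkd1 count was 11 without library 3 of WT and KO at P1, which was low for many members, and 11 without KO 3 alone. It was 3 without KO 1 or KO 2 at P1 and 1 without KO 2 at P7. The Pkd2 count was 5 without KO 2 at P7.

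Whether the KO effect itself changed with age was tested as an interaction of genotype and day. From P1 to P3 no member passed in either model (0% of transcripts; 1 member of each model had an unadjusted p under 0.05, and DESeq2 called 0). From P1 to P7 the KO effect of 6 members became more negative in the Pkd1 model, against 4.1% of transcripts called lower, 3.66% higher and 7.75% in either direction: Fabp3, Hadha, Etfa, Acaa1b, Scp2 and Hao2. Hao2 had the firmest change, -1.21 ± 0.19 (SE), adjusted p = 0.00231, and was called in all 18 fits that left out 1 library, and Acaa1b the widest of the 6, -1.46 ± 0.36 (SE), adjusted p = 0.0236, while Ehhadh was wider and did not pass (-1.96 ± 0.60 (SE), adjusted p = 0.0544). In the Pkd2 model 0 members passed (1.3% of transcripts did, 0.174% as lower), although 11 had an unadjusted p under 0.05, the smallest adjusted p was 0.0513 and DESeq2 called 4. The Pkd1 count ran from 1 to 14 when single libraries were left out. It was 1 without WT 3 or KO 2 at P1 or KO 2 at P7, 2 without KO 1 at P1 or WT 1 at P7, 12 without WT 3 at P7 and 14 without KO 3 at P1. A replicate block that treats same-numbered KO and WT libraries of each day as pairs raised the count to 18 members. All 6 above and Ehhadh (edgeR, adjusted p = 0.0111) were among them. Over all transcripts, deviations from group means in such Pkd1 pairs had correlations of 0.186 to 0.485 at P1. They were only -0.044 to 0.12 at P3 and -0.166 to -0.004 at P7.

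**Figure D4:**
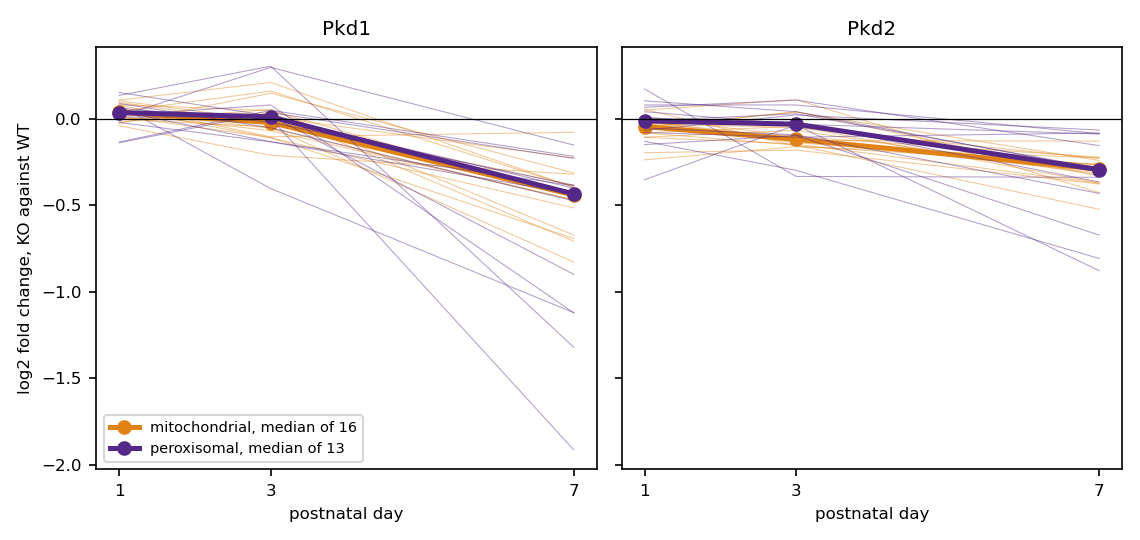
Log2 fold change between KO and WT at P1, P3 and P7, Pkd1 left and Pkd2 right; thin lines are single genes and thick lines the medians of the 16 mitochondrial (orange) and 13 peroxisomal (purple) genes. Both medians stay near 0 at P1 and P3 and lie at -0.44 in the Pkd1 and -0.29 in the Pkd2 model at P7.

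The size of the KO effect at P7 was compared between the models in a fit of the 12 libraries of that day. No member passed (edgeR, 0 of 12241 transcripts, 0%; 5 members and 2110 transcripts had an unadjusted p under 0.05, and DESeq2 called 2 members). The members' differences, Pkd1 minus Pkd2, had a median of -0.16 and were below 0 in 26 of 31, from -1.23 for Ehhadh (-1.23 ± 0.35 (SE), adjusted p = 0.151) to 0.31 for Acot2. Cpt1a had the smallest adjusted p (-0.58 ± 0.16 (SE), adjusted p = 0.145). For Acadm the 2 models were close, with a difference of 0.02 ± 0.14 (log2, SE), and for Cat it was 0.06 ± 0.10. A p that misses the threshold does not show that the models are alike, and up to 3 members were called when 1 library was left out.

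8 listed genes were left out for low counts, among them both regulators. Ppara, the nuclear receptor that induces most of these enzymes, had 0 to 5 counts, with 18 of the 36 libraries at 0, and Ppargc1a, its coactivator, had 0 in all 36, which allows up to 3 counts in a library. Acsl1, the acyl-CoA synthetase of the outer membranes, had 0 to 19 counts, Acox2 0 to 10, Acsm3 0 to 4, Hadhb 0 to 1, and Acsm2 and Etfb 0 in every library. These values cannot be read as levels of expression. Hadhb is the beta subunit of the trifunctional protein whose alpha subunit, Hadha, had 2834 to 6930 counts, and the promoter windows of both genes overlap on chromosome 5 (30155003 to 30155302 and 30154931 to 30155230). In the whole table, genes with 2 or more RefSeq rows had a best row under 10 mean counts in 73.7% of 4726 cases, against 35% of the 15732 genes with 1 row, so genes with several annotated transcripts were often counted near 0. Ppargc1a and Etfb have 1 row each, so this does not cover them. Ppara gave too few counts for a comparison.

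Other genes of the same pathways were called mostly lower at P7. Of 139 further genes in 4 lists, chosen with earlier results of these data known, 103 were tested in the Pkd1 and 104 in the Pkd2 model, and 27 and 32 were called lower, with 0 and 1 called higher, beside 7.14% and 6.17% of all transcripts called lower. In the list of fatty acid uptake and oxidation, 14 of 42 were lower in Pkd1 and 17 of 43 in Pkd2, with 1 higher, at medians of -0.45 and -0.30. Among other peroxisomal enzymes 7 and 8 of 27 were lower (medians -0.47 and -0.29), among regulators 5 and 4 of 17 (-0.20 and -0.26), and among genes of peroxisome assembly 1 and 3 of 17 (-0.20 and -0.16). No gene was higher in any of these 3 lists, and the 1 of 17 of the assembly list in Pkd1 is a share near the background. 18 of the further genes were lower in both models and 0 higher in both.

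By mean change over both models, large falls that passed in both included those of Acot3, a peroxisomal thioesterase, Acsm1, a medium-chain acyl-CoA synthetase of mitochondria, Slc27a2, a very long-chain acyl-CoA synthetase, and Acot4, another peroxisomal thioesterase. Acot3 had log2 fold changes of -2.13 ± 0.29 (SE), adjusted p = 0.00817 in Pkd1 and -1.05 ± 0.20 (SE), adjusted p = 0.0135 in Pkd2. Acsm1 stood at -1.70 ± 0.19 (SE), adjusted p = 0.00527, and -0.81 ± 0.09 (SE), adjusted p = 0.00148. Slc27a2 stood at -1.04 ± 0.25 (SE), adjusted p = 0.0351, and -0.70 ± 0.10 (SE), adjusted p = 0.00471. Hnf4a, a nuclear receptor of proximal tubule and liver, was lower in both (-0.97 ± 0.21 (SE), adjusted p = 0.0272, and -0.57 ± 0.14 (SE), adjusted p = 0.0328), and Esrra, the estrogen-related receptor that drives mitochondrial genes, in Pkd2 alone (-0.34 ± 0.09 (SE), adjusted p = 0.0473, and -0.20 ± 0.19 (SE), adjusted p = 0.486 in Pkd1). Slc25a20, the carnitine-acylcarnitine carrier, and Phyh, which starts the breakdown of phytanic acid, passed in Pkd2 (-0.28 and -0.39) and not in Pkd1 (-0.22 and -0.34). Ephx2 and Pex5 had too few counts to be tested.

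Markers of the proximal tubule were also lower in KO at P7. Of 20 markers, 16 were tested, and 10 were lower in the Pkd1 and 12 in the Pkd2 model, at medians of -1.38 and -0.69, which lie below those of the members. Lrp2, the endocytic receptor megalin, was -1.47 ± 0.24 (SE), adjusted p = 0.0122 in Pkd1 and -0.64 ± 0.12 (SE), adjusted p = 0.0118 in Pkd2, and Slc34a1, the phosphate transporter, -0.90 ± 0.26 (SE), adjusted p = 0.0517, and -0.72 ± 0.12 (SE), adjusted p = 0.00824. Slc5a12 had at most 2 counts and Slc4a4, named after its values were seen, 0 in every library. The summed CPM of the 20 markers was 2086 to 4195 in the Pkd1 KO and 7543 to 9162 in the WT, and 4716 to 5364 and 8101 to 9905 in the Pkd2 KO and WT. The KO mean of this sum was 39.6% of WT in Pkd1 and 55% in Pkd2, whereas that of the 31 members was 69.7% and 79.3%. In WT the marker sum rose from 3476 ± 389 at P1 to 8234 ± 835 at P7 in Pkd1 and from 4405 ± 1230 to 9197 ± 963 in Pkd2 (SD, n = 3), and 9 and 11 of the 16 markers were called higher, as 10 and 19 members were. The marker sum divided by the member sum was 0.755 ± 0.172 in the Pkd1 KO at P7, 1.35 ± 0.133 in the WT at P7 and 0.767 ± 0.014 in the WT at P1. In Pkd2 this ratio was 0.955 ± 0.0698 in the KO at P7, 1.373 ± 0.103 in the WT at P7 and 0.832 ± 0.129 in the WT at P1. The part of the proximal tubule markers in the members' values was not tested.

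**Figure D5:**
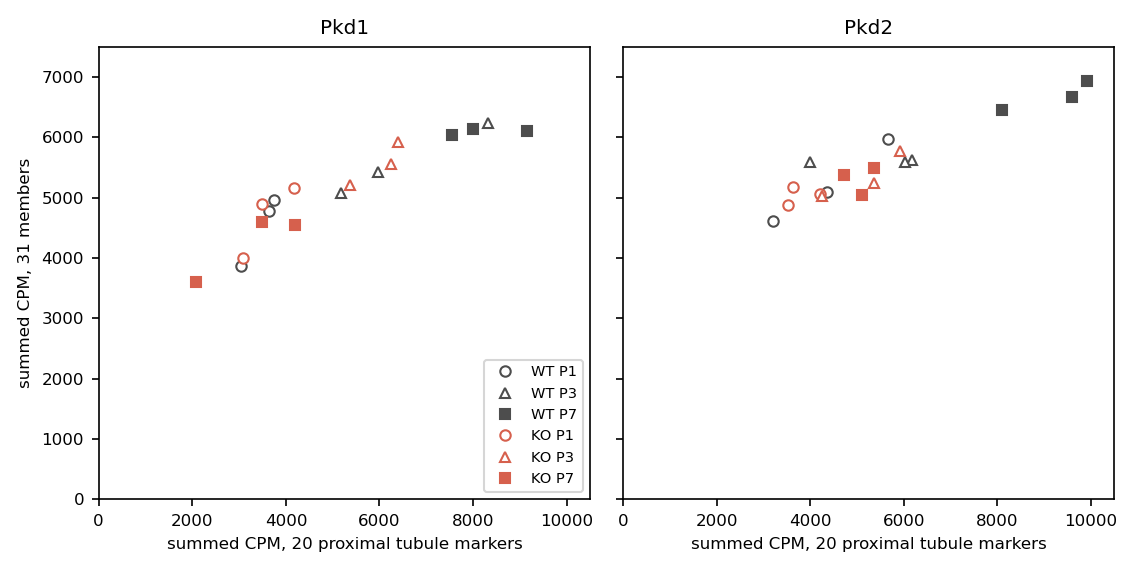
Summed CPM of the 31 members (vertical) against summed CPM of 20 proximal tubule markers (horizontal), 1 point per library, Pkd1 left and Pkd2 right; grey is WT, red is KO, and circles, triangles and filled squares are P1, P3 and P7. The P7 WT libraries lie at the upper right in both models, above every P7 KO library on both axes.

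Calls among other markers at P7 went both ways, beside 6.32% and 7.88% of all transcripts called higher and 7.14% and 6.17% called lower in Pkd1 and Pkd2. Of 8 tested markers of the collecting duct, the segment with the Cre, 3 were higher and 3 lower in Pkd1, and 2 higher and 3 lower in Pkd2. Their summed CPM was 1843 to 2389 in KO and 1820 to 2028 in WT of Pkd1, and 1863 to 2036 and 1788 to 2440 in Pkd2. Aqp2, the water channel, was among the lower ones (-2.27 ± 0.57 (SE), adjusted p = 0.038, and -2.38 ± 0.47 (SE), adjusted p = 0.0152). Markers of cyst-lining and injured epithelium were higher for 5 of 10 genes in Pkd1 and 4 of 10 in Pkd2, with summed CPM of 1248 to 1987 in KO and 753 to 842 in WT of Pkd1, and of 1584 to 1813 and 773 to 1356 in Pkd2. Leukocyte markers were higher for 1 and 4 of 7. Of markers of the thick ascending limb and distal tubule 2 of 6 were lower in each model. Of the fat markers 3 of 6 were higher in the Pkd1 KO and 1 of 7 higher and 1 lower in the Pkd2 KO, and their summed CPM was 304.2 to 399 in the Pkd1 KO against 224 to 392 in the WT, and 202.8 to 217 against 274 to 333 in the Pkd2 model. Their part in the members' values was not tested.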

How the data were processed

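Total RNA of whole kidneys was sequenced, and the authors deposited a table of raw read counts per RefSeq transcript for 36 libraries; per the labels, base calling used CASAVA 1.8.2, alignment to mm10 used TopHat2 2.1.0 and counting used HTSeq, whose version is not given in the sources used here. Of 29996 rows, 28978 were paired with a gene symbol. Members and gene lists were chosen with earlier results of these data known. Groups followed the sample labels.

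Counts were tested with edgeR 4.0.16 (quasi-likelihood, TMM factors, R 4.3.3) after dropping transcripts that did not reach 10 counts in 3 or more of a model's 18 libraries, with Benjamini-Hochberg adjustment over all of them and a threshold of 0.05. KO was compared with WT in the 6 libraries of a day, and day and interaction contrasts used the 18 libraries of a model or the 12 at P7. The model was tested on simulated data. CPM use 1 TMM scale over the 36 libraries. DESeq2 1.42.0, RLE factors, other filters, summed RefSeq rows, a replicate block, single libraries left out, a Y-linked covariate and a minimum change of 2-fold were tried as alternatives. Every kept member could be named, with values in every sample for members called in both models at P7. Of other pathway genes, a short list and the largest changes called in both models could be named, and some of these are not reported here. Over all transcripts, every same-numbered pair of KO and WT libraries had a correlation of deviations from group means over 0.1 in the Pkd1 model at P1 (0.186 to 0.485) and at no other day or in Pkd2. Same-numbered libraries thus moved together there, but the labels give no pairing and the cause was not tested. The main tests do not use such pairs, and the block changed no call of KO against WT at P1. A count of 0 allows up to 3 counts, for counting error only. Transcript lengths came from GENCODE M21.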

Additional observations from a re-analysis of the deposited data

Results flagged for a closer look

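In the Pkd1 model the KO effect differed between P7 and P1, by the test of that difference itself (edgeR, genotype by day), for 6 members: Fabp3 (-0.83 on the log2 scale), Hadha (-0.72 on the log2 scale), Etfa (-0.54 on the log2 scale), Acaa1b (-1.46 on the log2 scale), Scp2 (-0.57 on the log2 scale) and Hao2 (-1.21 on the log2 scale). Each was more negative at P7. Hao2 kept its call in 18 of 18 fits that left out 1 library, Acaa1b in 14, Fabp3 in 13, Etfa in 12, Hadha in 8 and Scp2 in 7. All 3 Pkd1 KO libraries and no Pkd1 WT library had Y-linked counts at P7, whereas 2 of 3 WT libraries and no KO library had them at P1, so genotype and these counts cannot be told apart at P7.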

How the results depend on the processing

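Members called at P7 in the Pkd1 model numbered 13, and 20 with DESeq2, 23 with all 18 libraries in 1 fit, 0 in that fit with the Y-linked covariate, 8 with the replicate block, 3 at a minimum change of 2-fold (Ehhadh, Acaa1b and Hao2) and 1 without KO libraries 1 and 3. The Y-linked covariate of Pkd1 rests on the 3 WT libraries at P1, the only Pkd1 group with libraries both with and without such counts. In the Pkd2 model 19 were called, and 0 at a minimum change of 2-fold. Leaving out 1 library gave 2 to 18 and 7 to 22. With the covariate Acot2 and Acadl of Pkd1 turned to 0.21 and 0.12, and Eci2 of Pkd2 ran from -0.16 to 0.1 over single libraries and was 0.1 without KO 3 and WT 3; the cause was not tested. Between P1 and P3, DESeq2 called 3 in the Pkd1 WT (0 by edgeR) and 5 in the Pkd2 WT (3 by edgeR); 2 of these 3 remained with summed RefSeq rows, without a low-count filter or with the replicate block. Leaving out 1 library gave 0 to 2 and 0 to 4 there, 0 to 4 and 9 to 17 between P3 and P7, and 8 to 11 and 9 to 26 between P1 and P7. In the KO, P7 against P1 gave 5 in Pkd1 (3 without a filter, 11 without library 3 of both genotypes at P1, 1 to 11 over single libraries) and 5 to 11 over single libraries in Pkd2. The KO effect P7 minus P1 gave 6 in Pkd1 (13 with DESeq2, 18 with the replicate block, 1 to 14 over single libraries) and 0 in Pkd2 (4 with DESeq2, 1 with RLE factors, 1 with at least 10 counts in every library, 0 to 8 over single libraries). Between the models, DESeq2 called 2 and single libraries gave 0 to 3, and for Pkd1 at P3 0 to 1. The alternatives for the libraries with adrenal, Ucp1 or low P1 values were chosen after seeing the data.

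Apart from Pkd1 at P1, not every same-numbered pair had a correlation of deviations over 0.1 across all transcripts (lowest -0.167), although among the members library 1 of Pkd1 at P3 was the lowest in both genotypes for 17 of 31. Limits are the genes with several RefSeq rows and counts near 0, the low counts of Pex11a and Eci2, and 3 libraries per group.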

Other observations

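At P1 library 3 of the Pkd1 model was low for many members in WT and in KO alike. It was the lowest of its 3 replicates in both genotypes for 18 of the 31 members, against 26.2% of all transcripts. Ehhadh in library 3 was 34.7% of the mean of libraries 1 and 2 in WT and 34.9% in KO, and Cpt1a was 42.3% and 34.7%. Cpt2 was 59.3% and 52.9%, while Acadsb (121% and 117%), Echs1 (118% and 123%) and Acaa1a (116% and 110%) were above it. The pattern was therefore not a shift of all members. At P3 library 1 of the Pkd1 model was the lowest in both genotypes for 17 of 31 members, against 11.6% of transcripts, and at P7 library 2 for 14, against 14.9%. In the Pkd2 model the largest such number was 8, for library 3 at P3, against 11.3%. The labels do not say whether libraries of one number share a litter or a day, and the cause was not tested.

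The ratio of Acadm to Acadl, the medium- to the long-chain dehydrogenase, was chosen after the values were seen. Its log2 value was 0.26 ± 0.05 (SD, n = 3) in WT and -0.03 ± 0.04 in KO of the Pkd1 model at P7, and 0.25 ± 0.03 and -0.14 ± 0.13 in the Pkd2 model. The groups did not overlap in either model at P7 (exact permutation test, two-sided, p = 0.1, the smallest that 3 against 3 allows, adjusted p = 0.3 over 18 comparisons).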
